A study of Mus musculus with 4 samples.

Results

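The interferon pathway was examined through 9 genes in mouse embryonic stem cells (mESCs). They are the genes of both chains of the type I interferon receptor (*Ifnar1*, *Ifnar2*), of 4 transcription factors (*Stat2*, *Irf1*, *Irf3*, *Irf9*) and of 3 antiviral effectors (*Isg15*, *Ifitm1*, *Ifitm2*). They were picked by name, from a table of read counts for 37310 genes, and all 9 were found in it. Secreted type I interferons bind the IFNAR1 and IFNAR2 chains and activate the kinases TYK2 and JAK1, which phosphorylate STAT proteins. STAT2 and IRF9 are parts of the factor ISGF3, which binds interferon-stimulated response elements (ISREs) in the promoters of antiviral genes. Pluripotent cells are known to respond to interferon only weakly and to express some antiviral genes, *Ifitm* genes among them, without it.

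RNA was sequenced from HATX mESCs, whose *Xist* transgene is switched on by doxycycline, either wild-type (WT) or labelled SpenKO, clone 2. Each group held 2 libraries, both lines share the mixed genomic background and growth in serum with LIF on gelatin, and no treatment was stated. The study describes the lines as haploid and the knockout as a deletion of *Spen*, which encodes an RNA-binding repressor needed by *Xist*. The SpenKO group is 1 clone, so clonal differences and loss of Spen cannot be told apart, and p-values measure only the spread between libraries, which may be technical.

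Total counts ran from 36667685 to 61908422 per library. *Spen* RNA was counted at 3716 and 3047 normalized counts in WT and at 7797 and 6242 in the SpenKO libraries, so gene-level RNA counts do not serve as a check of the deletion, nor speak for or against loss of the protein, and the group is called KO-labelled. All 8 stem cell markers were counted in every library, of which *Dppa5a* and *Zfp42* were higher, by 0.28 and 0.23 on the log2 scale, and the other 6, *Pou5f1* among them at 0.01 ± 0.08 (SE), did not pass the test. Of 7 blood markers, *Ptprc* and *Lyz2* had at most 2 counts in any library. Normalized counts of that list summed to 459 and 463 in WT and to 738 and 659 in KO-labelled libraries, with *Itgam* at 27.2 and 149 and *Cd68* at 319 and 467 on average, both higher by the test, and *Cd3e* at 106 and 70.4, which did not pass it. The 7 fibroblast markers summed to 172 and 192 in WT and to 421 and 485 in KO-labelled libraries, of which *Thy1* made up most, and *Postn* and *Lum* had at most 2 counts. The sum does not speak for the whole list. Of its 4 markers tested, 2 had positive and 2 negative log2 fold changes, and 1 was called higher and 0 lower. The part of either list in the results below was not tested, and in bulk RNA fewer cells of a type and less RNA per cell cannot be told apart. The 6 primitive endoderm markers summed to 530.3 and 566 in WT and to 285 and 246 in KO-labelled libraries, and the 4 trophoblast markers annotated of 5 listed to 133 and 105 and to 55.7 and 59.5.

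Promoters are shown first for the 3 effectors, because ISRE-like motifs there are what interferon acts through and the 3 genes were expressed at very different levels. Each window runs from 250 bases before to 50 bases after a RefSeq transcript start (build GRCm38.p6), is 300 bases long and is written 5′ to 3′ on the strand of the gene. Capitals mark matches to GAAA, any 2 bases, GAAA, searched on both strands. *Isg15* lies on chromosome 4 (156200769 to 156201068, minus strand), *Ifitm2* on chromosome 7 (140955912 to 140956211, minus strand) and *Ifitm1* on chromosome 7 (140967826 to 140968125, plus strand).
Isg15: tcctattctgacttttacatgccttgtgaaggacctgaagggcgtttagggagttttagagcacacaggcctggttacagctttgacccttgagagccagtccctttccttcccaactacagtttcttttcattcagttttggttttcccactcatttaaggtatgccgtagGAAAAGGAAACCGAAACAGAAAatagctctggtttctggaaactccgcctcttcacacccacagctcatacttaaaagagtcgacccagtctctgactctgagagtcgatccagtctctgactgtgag
Ifitm2: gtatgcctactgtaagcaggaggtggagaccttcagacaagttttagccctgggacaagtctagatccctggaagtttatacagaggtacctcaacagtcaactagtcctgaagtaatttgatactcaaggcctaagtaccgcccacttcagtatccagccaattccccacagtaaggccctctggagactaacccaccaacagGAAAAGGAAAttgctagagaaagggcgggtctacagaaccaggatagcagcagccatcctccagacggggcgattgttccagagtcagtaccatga
Ifitm1: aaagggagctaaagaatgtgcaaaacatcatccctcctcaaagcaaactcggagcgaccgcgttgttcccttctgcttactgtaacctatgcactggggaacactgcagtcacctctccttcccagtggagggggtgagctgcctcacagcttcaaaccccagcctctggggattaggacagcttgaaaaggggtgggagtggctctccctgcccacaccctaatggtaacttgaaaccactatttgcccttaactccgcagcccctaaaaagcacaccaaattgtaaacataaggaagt

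*Isg15* held 3 overlapping matches, spanning bases -78 to -57 from the start site. *Ifitm2* held 1 match at -46 to -37, and no match lay in the *Ifitm1* window. *Stat2* held 1 match on the other strand (TTTCAGTTTC, -222 to -213). Over the 11 windows of the 9 members, 3 (27.3%) held the motif, against 3.44% of the 32851 windows in the whole table. Among windows of other antiviral effector genes 12 of 33 held it. A second motif, the GAS element (TTC, any 3 bases, GAA, the same on both strands), was found in 3 member windows, those of *Ifnar1*, *Ifnar2* and *Irf1*, and in 8.30% of all windows. The *Irf1* match was TTCCCCGAA at -90 to -82.

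Next, the groups were compared. *Ifitm1*, *Ifitm2* and *Irf1* were higher in the KO-labelled libraries, by 1.49-fold, 1.54-fold and 1.31-fold, and no member was lower by the test. By DESeq2, 3 of 9 members had an adjusted p under 0.05 and were higher, against 16.4% of the 17710 genes tested, and 0 were lower, against 15.8%. At an unadjusted p under 0.05, 4 were higher and 0 lower, beside 3564 and 3456 of all genes tested. edgeR's quasi-likelihood test also called 4 and 0, the fourth being *Irf9*, beside 3346 and 3721 of 17261 genes. At the study's own thresholds (at least 2-fold, adjusted p under 0.001) DESeq2 and edgeR called 0 members in either direction, and the background shares were 1.36% higher and 3.15% lower. The median log2 fold change was 0.09 over the members and 0.00 (0.00489) over all genes tested. Normalized counts of the 2 groups did not overlap for 6 members, 4 of them higher and 2 lower in the clone, while 35.4% and 34.8% of all genes tested did the same.

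**Figure D1:**
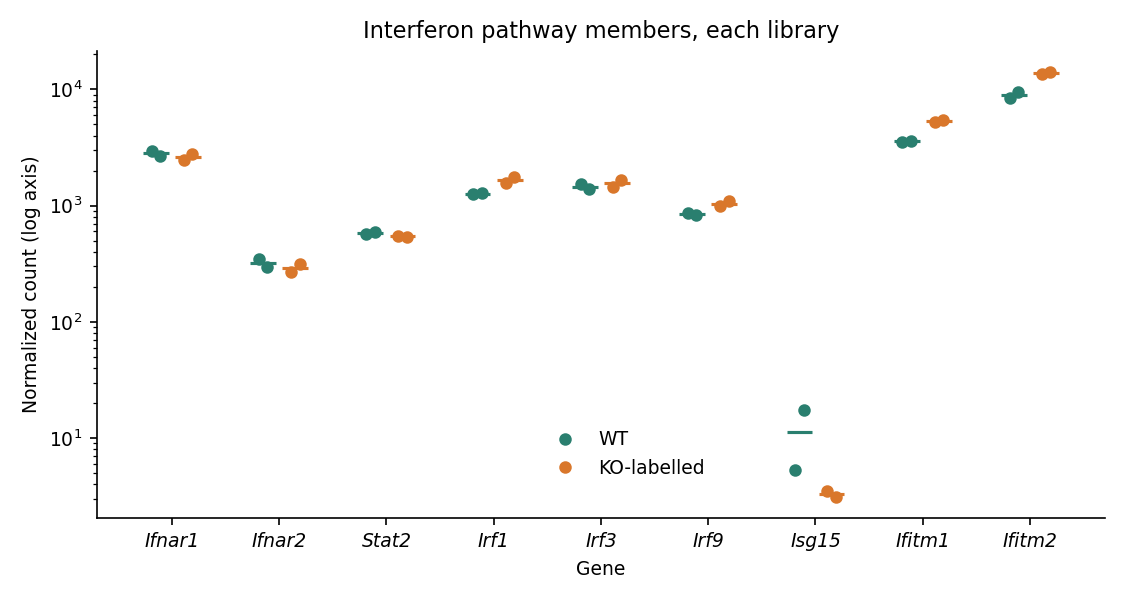
Normalized counts of the 9 genes (log axis) in each library, WT in green and KO-labelled in orange, with bars at group means. *Ifitm1*, *Ifitm2*, *Irf1* and *Irf9* have both KO-labelled points above both WT points, and *Isg15* lies far below all others.

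The receptor came first among the members. *Ifnar1* (ENSMUSG00000022967.6, mm9 chromosome 16, 91485483 to 91507686) encodes the chain that binds TYK2. Its normalized counts were 2937 and 2683 in WT and 2462 and 2794 in KO-labelled libraries. The groups overlapped, at -0.10 ± 0.10 (SE), with a 95% interval from -0.29 to 0.10 and a DESeq2 adjusted p of 0.521. *Ifnar2* (ENSMUSG00000022971.11, chromosome 16, 91373028 to 91419696) encodes the chain that binds JAK1. It had 349 and 295 normalized counts in WT and 269.9 and 313 in KO-labelled libraries. These also overlapped, at -0.14 ± 0.21 (SE), with an interval from -0.55 to 0.27 and an adjusted p of 0.678. Changes of the receptor chains within those intervals were not detectable with 2 libraries per group. *Il10rb*, on the same strand, shares 14.6% of the exonic bases of *Ifnar2*.

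Among the transcription factors *Irf1* alone passed the test. IRF1 binds ISRE-like sites by itself and was first known as an activator of interferon genes. *Irf1* (ENSMUSG00000018899.9, chromosome 11, 53583516 to 53591876) had 1249 and 1289 normalized counts in WT and 1566 and 1747 in KO-labelled libraries. Both KO-labelled values were above both WT values. Group means were 1269 ± 28.6 and 1657 ± 127 (SD, n = 2), apart by a log2 difference of 0.38 ± 0.11 (SE), adjusted p = 0.00266 by DESeq2. The call was lost without WT replicate 1 (0.37, adjusted p = 0.0771) and without KO-labelled replicate 2 (0.31, adjusted p = 0.175). It was also lost when the median of each chromosome was removed (0.22, adjusted p = 0.134), since the median gene of chromosome 11 was higher by 0.16. Over all its alternatives the adjusted p ran from 0.000835 to 0.175.

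*Irf9* (ENSMUSG00000002325.8, chromosome 14, 56222408 to 56228867), the DNA-binding part of ISGF3, had 860.4 and 835 normalized counts in WT and 987 and 1096 in KO-labelled libraries. The groups did not overlap and stood apart by 0.30 ± 0.13 (SE), with an interval from 0.05 to 0.55 and a DESeq2 adjusted p of 0.0595. With upper-quartile size factors it was past the threshold (0.33, adjusted p = 0.0297), as it was in edgeR (0.28, adjusted p = 0.0289), in a range from 0.0289 to 0.46 over its alternatives. *Rnf31*, which ends inside *Irf9* on the same strand and shares 2.28% of its exonic bases, was itself higher, by 0.56 ± 0.11 (SE).

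*Stat2* (ENSMUSG00000040033.8, chromosome 10, 127707629 to 127729905), the STAT that ties ISGF3 to the type I receptor, had 574 and 592 normalized counts in WT and 550.3 and 542 in KO-labelled libraries. Both KO-labelled values were below both WT values by a small margin. On the log2 scale this came to -0.10 ± 0.15 (SE), with an interval from -0.39 to 0.20 and a DESeq2 adjusted p of 0.70. The median gene of chromosome 10 was lower by more, at -0.35, and relative to that median *Stat2* stood at 0.25 (adjusted p = 0.232). *Irf3* (ENSMUSG00000003184.8, chromosome 7, 52253018 to 52258218) encodes the factor that sensors of foreign RNA and DNA activate to induce *Ifnb1*. It had 1525 and 1395 normalized counts in WT and 1445 and 1658 in KO-labelled libraries. The groups overlapped, at 0.09 ± 0.11 (SE), with an interval from -0.14 to 0.31 and an adjusted p of 0.624.

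**Figure D2:**
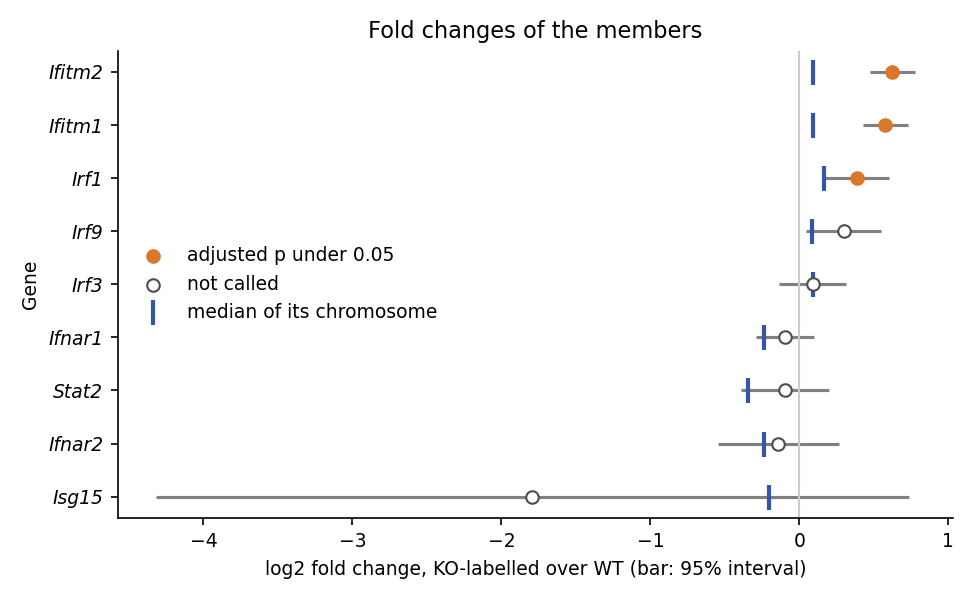
Log2 fold changes (KO-labelled over WT) of the 9 genes with 95% intervals; filled points have a DESeq2 adjusted p under 0.05 and blue ticks mark the median gene of the same chromosome. The intervals of *Ifitm1* and *Ifitm2* lie wholly above their chromosome's median of 0.09, and that of *Isg15* runs from -4.32 to 0.73.

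The effectors split into 2 abundant genes that rose and 1 that was barely counted. IFITM proteins sit in cell membranes and hinder the fusion of enveloped viruses. *Ifitm2* (ENSMUSG00000060591.7, chromosome 7, 148140736 to 148141882) had 8445 and 9460 normalized counts in WT and 13503 and 14123 in KO-labelled libraries. These average 8953 ± 717 and 13813 ± 438 (SD, n = 2), apart by a log2 difference of 0.63 ± 0.08 (SE), adjusted p = 1.57e-14 by DESeq2. *Ifitm1* (ENSMUSG00000025491.8, chromosome 7, 148153120 to 148155724) had 3539.9 and 3585 normalized counts in WT and 5207 and 5428 in KO-labelled libraries. Its rise was of like size, at 0.58 ± 0.08 (SE), adjusted p = 4.62e-12. In both genes every KO-labelled library lay above every WT library. Under all alternatives the log2 fold changes stayed between 0.53 and 0.71 for *Ifitm2* and between 0.48 and 0.62 for *Ifitm1*, and every adjusted p was at most 5.32e-05.

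Both *Ifitm* counts are uncertain in part, since how reads with several matches were counted was not stated. Sequence at least 95% identical was found elsewhere in mm9 for 99.7% of the exonic bases of *Ifitm2*, spread over 4 loci, and for 60.7% of those of *Ifitm1*, at 1 locus. The annotated genes at these loci had few counts where they are copies themselves. *Gm7676*, which holds the *Ifitm1* copy, had 2, 2, 5 and 3 counts in WT replicates 1 and 2 and KO-labelled replicates 1 and 2. *Gm5331*, *Gm11951* and *Gm8865* at the *Ifitm2* copies had at most 13 counts in any library and *Gm10332* at most 68, against at least 6370 for *Ifitm2*.

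*Isg15* (ENSMUSG00000035692.6, chromosome 4, 155573533 to 155574927) encodes a ubiquitin-like protein that is joined to other proteins after interferon treatment. Raw counts were 4 and 16 for WT and 4 in each KO-labelled library. After scaling these were 5.30 and 17.4 against 3.48 and 3.13 normalized counts. The KO-labelled values were below both WT values, but the log2 fold change of -1.79 ± 1.29 (SE) had an interval from -4.32 to 0.73 and a DESeq2 adjusted p of 0.319. WT replicate 2 decided its size, and without that library it was -0.68. Copies covered 93.4% of its exonic bases, the longest within *Zfp318* on chromosome 17, so reads of *Isg15* could have been lost or shared, and its low count is uncertain for that reason.

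Levels of different genes were compared per length, as TPM, the length-scaled share of a library, from exonic lengths. Mean TPM in WT were 469 for *Ifitm2*, 111 for *Ifitm1*, 16.3 for *Ifnar1*, 15.6 for *Irf3*, 10.9 for *Irf1*, 5.37 for *Irf9*, 4.52 for *Stat2*, 2.82 for *Ifnar2* and 0.513 for *Isg15*. By mean TPM over all 4 libraries, *Ifitm2* stood at the 99.35 percentile of genes with any count, and *Isg15* at the 33.6 percentile. *Ifnar1* (17.1 and 15.6 TPM) and *Irf3* (16.3 and 14.9 TPM) did not differ beyond their spread in WT, and the other neighbours in that order did not overlap between genes. The 2 receptor chains thus differed in RNA level by more than their spread. TPM values ran higher in KO-labelled libraries for the typical gene, by 0.28 on the log2 scale, so they are not compared between groups.

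The members' places in the genome were then examined. *Ifnar2* and *Ifnar1* lie in a cluster of cytokine receptor genes beside the neural transcription factor genes *Olig2* and *Olig1*. *Olig1*, which starts 103 kb before *Ifnar2*, went from 1427 and 1419 normalized counts in WT to 6.97 and 7.83 in KO-labelled libraries, and *Olig2* from 2186 and 2527 to 19.2 and 26.6. *Gm9881*, before both, was lower at -3.79 ± 0.95 (SE). *Ifnar2* and *Ifnar1*, the next genes on but for *Il10rb*, did not follow them past the test. *Ifngr2*, a chain of the type II interferon receptor 174 kb after the start of *Ifnar2*, had 203 and 249 normalized counts in WT and 100.1 and 88.4 in KO-labelled libraries. It was lower, at -1.27 ± 0.28 (SE), adjusted p = 5.1e-05 by DESeq2. *Il10rb*, which encodes a chain shared by the receptors for IL-10 and type III interferons, had 29.2 and 23.96 normalized counts in WT and 7.84 and 7.83 in KO-labelled libraries, with an adjusted p of 0.088. *Gart*, farther on, was lower by 0.62 and *Son* higher by 0.36, so genes of this stretch did not share 1 direction. Whether the fold changes of neighbours differed from those of *Ifnar1* and *Ifnar2* was not tested.

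The *Ifitm* cluster on chromosome 7 showed a different picture. *Athl1*, which starts 13.4 kb before *Ifitm2* by lower coordinate, was higher by 0.63 ± 0.13 (SE), and *Nlrp6*, of a family of inflammasome sensors, by 1.46 ± 0.41 (SE), with DESeq2 adjusted p of 1.38e-05 and 0.00195. *Ifitm3*, the family's best studied antiviral member, had 2091 and 2577 normalized counts in WT and 2356 and 2047 in KO-labelled libraries. Its groups overlapped, at -0.09 ± 0.12 (SE), adjusted p = 0.646. *B4galnt4* beyond it was lower, at -0.30 ± 0.09 (SE). The difference between *Ifitm3* and the 2 *Ifitm* genes that rose was not tested.

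**Figure D3:**
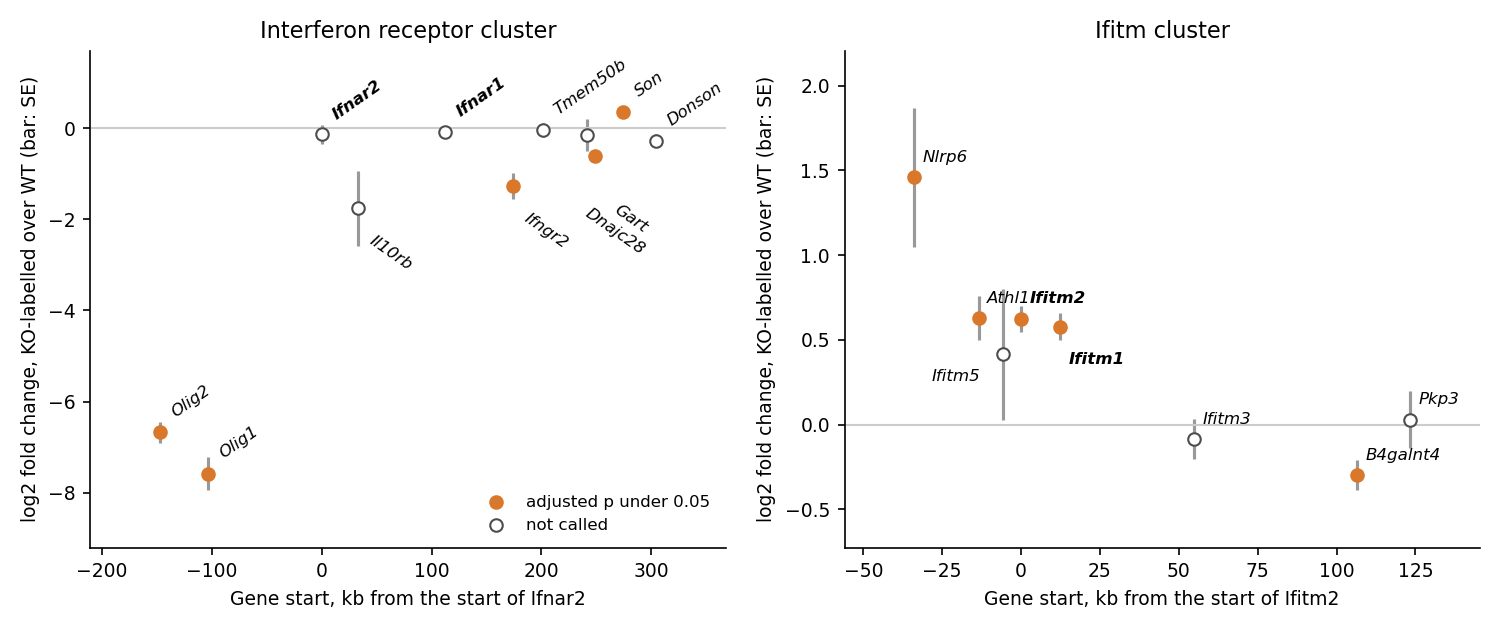
Log2 fold change (KO-labelled over WT, bars SE) of protein-coding genes with an adjusted p around the receptor genes (left) and the *Ifitm* genes (right), by distance of the gene start in kb. On the left *Olig2* and *Olig1* sit at -6.68 and -7.58 while *Ifnar2* and *Ifnar1* sit near 0; on the right *Ifitm2* and *Ifitm1* sit with *Athl1* near 0.6 and *Ifitm3* near 0.

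Beside *Irf9*, 4 of the 6 nearest tested genes were higher, *Psme2*, *Rnf31*, *Rec8* and *Ipo4*, at 0.44, 0.56, 0.45 and 0.34. *Psme2* encodes a proteasome activator that interferon induces. Next to *Irf1*, *Rad50* was higher by 0.53 and *Sept8* lower, at -0.33. *Scaf1* beside *Irf3* was higher by 0.28, *Timeless* beside *Stat2* was lower, at -0.20, and *Agrn* and *Klhl17* beside *Isg15* were lower, at -0.26 and -0.50. The other genes nearest to these members did not pass the test.

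The rest of the pathway was read from the same fit, in lists by role, whose counts stand beside the 16.4% higher and 15.8% lower of all genes tested. Interferon genes themselves were all but uncounted. Of 19 annotated of 21 listed, 15 had no count in any library, *Ifnb1* among them, and 17 had at most 3 in every library. Copies cover 98.8% of the exonic bases of *Ifna6*, 100% of *Ifnz* and 82.3% each of *Il28a* and *Il28b*. Reads of these genes, named for their copies, could have been lost. None of the 19 got an adjusted p after the default filter on low counts. A count of 0 allows up to 3 counts per library. The 3 most counted were *Ifna13* (3 and 14 counts in WT, 2 and 8 in KO-labelled libraries), *Ifnk* (0 and 2, then 9 and 12) and *Ifng* (3 and 0, then 0 and 0).

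Receptor chains and kinases other than the members held called genes in 1 direction. Of 7 tested, 4 were lower and 0 higher at a DESeq2 adjusted p under 0.05, with a median log2 fold change of -0.49, and at an unadjusted p under 0.05 or in edgeR 5 were lower and 0 higher. The 4 were *Ifngr2*, at -1.27, and *Ifngr1*, at -0.74, the chains of the type II receptor, and the kinases *Jak1*, at -0.49, and *Tyk2*, at -0.35. *Tyk2* fell from 2061 ± 32.1 to 1618 ± 55.6 normalized counts (SD, n = 2) with an adjusted p of 0.00202. The other 3 did not pass the test: *Jak2*, which serves the type II receptor, had 0.14 ± 0.20 (SE), *Il28ra*, a chain of the type III receptor, -0.06 ± 0.31 (SE), and *Il10rb* the values given above. The lower count was 2 without WT replicate 1, 1 without WT replicate 2, 1 without KO-labelled replicate 2 and 2 with chromosome medians removed.

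STAT and IRF factors moved both ways. Of 8 tested among 9 annotated, 2 were higher and 2 lower, with a median of -0.43. *Irf5* rose from 107 ± 6.36 to 224 ± 23.9 normalized counts (SD, n = 2), at 1.07, and *Irf2bp2*, which encodes a corepressor that binds IRF2, was higher by 0.39. *Irf2bp1*, of the same family as *Irf2bp2*, had -0.12 ± 0.12 (SE). The lower count was 4 in edgeR and 1 without WT replicate 1 or either KO-labelled library, and the higher count was 1 without KO-labelled replicate 1.

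Of genes for joining ISG15 to proteins, 3 of 5 were tested, of which 2 were higher and 0 lower, as also at an unadjusted p under 0.05 and in edgeR. *Ube2l6*, the conjugating enzyme, was higher by 0.89 ± 0.11 (SE), from 1026 and 1064 normalized counts in WT to 1842 and 2033 in KO-labelled libraries, and copies cover 26.4% of its exonic bases. *Trim25*, a ligase that also activates RIG-I, was higher by 0.40 ± 0.07 (SE). *Herc6*, the mouse ISG15 ligase, had -0.48 ± 0.34 (SE), and the activating enzyme gene *Uba7* had at most 8 counts. The other *Ifitm* genes gave 0 calls in 3 tested, by DESeq2, by edgeR and at an unadjusted p under 0.05, and *Ifitm5* and *Ifitm7* had 0.41 ± 0.39 and 0.59 ± 0.69 (SE).

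Antiviral effectors other than the members held called genes in both directions. Of 26 tested among 35 annotated, 8 were higher and 4 lower, with a median of 0.22, which was the same with *Isg20* at its bound, and the share that was lower was near that of all genes. The most counted were *Pml*, whose product builds nuclear bodies, at 0.54 ± 0.08 (SE), *Adar*, an editor of double-stranded RNA, at 0.33 ± 0.08 (SE), and *Zc3hav1*, a binder of viral RNA, at 0.15 ± 0.09 (SE). *Pml* and *Adar* rose, with DESeq2 adjusted p of 8.09e-10 and 0.000477, and *Zc3hav1* did not pass the test (0.224). *Zbp1*, a sensor of Z-form nucleic acid, rose from 60.4 ± 8.37 to 182 ± 8.43 normalized counts (SD, n = 2), at 1.60, and *Oas1g*, of the 2-5A synthetases, was higher by 0.95, with copies over 74.7% of its exonic bases. *Gbp2*, an interferon-induced GTPase, was lower at -1.33, *Cmpk2*, a nucleotide kinase, at -2.06, and *Dtx3l*, a ubiquitin ligase, at -0.52. The fourth lower gene, *Isg20*, which encodes an RNA exonuclease and is named for its count, was counted 13 and 12 times in WT and 0 times in either KO-labelled library, which is at least 6.11-fold lower against 3 counts per library. *Mx1*, *Mx2*, *Ifit3*, *Ifi44* and *Rtp4*, named after their values were seen, had at most 4 counts in any library. Leaving out WT replicate 1, KO-labelled replicate 1 or KO-labelled replicate 2 left 4, 4 and 3 higher, and without WT replicate 1 there were 2 lower.

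Antigen presentation genes that interferon raises gave 4 higher and 0 lower of 9 tested, with a median of 0.37, and edgeR or an unadjusted p under 0.05 gave 4 and 1. *H2-D1*, an MHC class I heavy chain gene, had 270.5 and 331 normalized counts in WT and 979.6 and 920.3 in KO-labelled libraries, at 1.65 ± 0.16 (SE), adjusted p = 3.71e-23 by DESeq2. *Psmb10*, *Tapbp* and *H2-K1* were higher by 0.74, 0.55 and 0.37. Copies cover 28.9% and 31.2% of the exonic bases of *H2-D1* and *H2-K1*. By sign alone, 5 of the 9 had positive and 4 negative log2 fold changes. The 4 negative genes, named after their values were seen, did not pass the test. *B2m*, the light chain of the same complex, had -0.22 ± 0.27 (SE). *Tap1*, *Tap2* and *Psmb8* had -0.65 ± 0.32, -0.90 ± 0.68 and -0.71 ± 0.77 (SE).

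Inhibitors of the pathway were 3 higher and 2 lower of 11 tested, with a median of -0.03, and the share that was lower was near that of all genes. *Pias2* and *Pias1*, of the SUMO ligases that hold back STATs, were higher by 0.48 and 0.47, and *Ptpn6*, a phosphatase, by 0.43. *Socs3*, the feedback inhibitor that LIF also induces, fell from 6319 ± 170.4 to 5177 ± 191 normalized counts (SD, n = 2), and *Ptpn11*, another phosphatase, was lower at -0.30. Without WT replicate 1, or without KO-labelled replicate 1, neither stayed called.

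**Figure D4:**
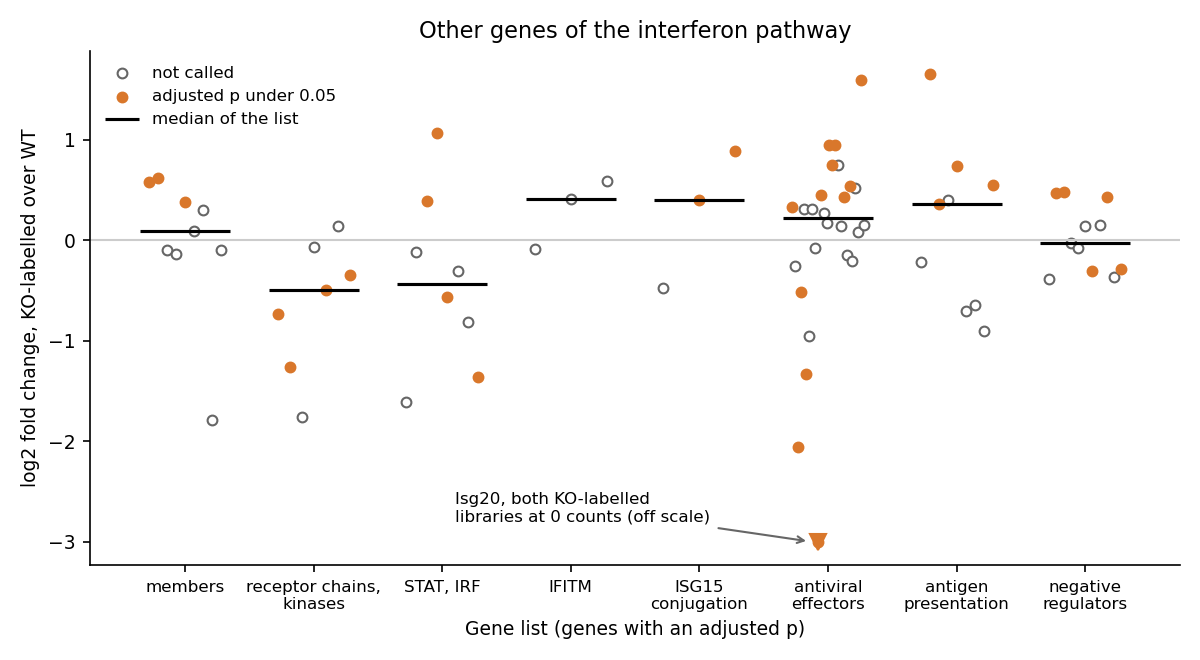
Log2 fold changes (KO-labelled over WT) of genes with an adjusted p in each list, filled where the DESeq2 adjusted p was under 0.05, with list medians as bars; the triangle marks *Isg20*, which is off the scale. Medians run from -0.49 for receptor chains and kinases to 0.41 for other *Ifitm* genes, and lists of effectors and factors hold called genes on both sides of 0.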

How the data were processed

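RNA-seq counts of 4 libraries (2 WT, 2 SpenKO clone 2) were analysed. Per the labels and the study's methods, libraries were stranded and depleted of ribosomal RNA, and the authors mapped paired reads to mm9 with STAR and assigned them to GENCODE vM1 genes with featureCounts. The deposited values are raw counts per gene, with no normalization. Versions, the strand setting and what was done with multiply matching reads are not given in the sources used here, so overlapping genes and genes with copies are uncertain. There were 0 columns without a sample.

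All 37310 genes were fitted in R 4.3.3 by DESeq2 1.42.0 (group as the term, Wald test, default size factors and filtering, Benjamini-Hochberg adjustment), the tool of the study, with edgeR 4.0.16 as an alternative. DESeq2 gave 17710 genes an adjusted p. In simulated counts with 200 genes changed for this comparison, 63% of 2-fold and 81% of 4-fold changes were called at an adjusted p under 0.05, and 99.9% of 21335 unchanged genes were not. In the data themselves 2909 genes were called higher and 2805 lower, a far larger share than was simulated. The adjustment depends on that share, so the simulated rates need not hold for the members. Positions are 1-based on mm9, except promoters (RefSeq, GRCm38.p6), which matched all 9 members. Copies were BLAST hits of at least 50 bases and 95% identity. Chromosome medians were taken over genes averaging 50 normalized counts or more.

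The members and lists were chosen with earlier results of these data known. In each list the 3 most counted genes and up to 3 called genes per direction with the lowest adjusted p are named, and beside each member the 3 nearest tested protein-coding genes per side that passed the test, plus others where they are said to be. Some genes that this rule would name are not reported here. Libraries of a group are called replicates as labelled. The depths above limit low genes such as *Isg15* first, and floors of 3 counts cover counting error only.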

Additional observations from a re-analysis of the deposited data

How the results depend on the processing

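Chromosome medians removed turned the direction of 4 uncalled members, to 0.14 for *Ifnar1*, 0.09 for *Ifnar2* (0.0946), 0.25 for *Stat2* and -0.01 for *Irf3* (-0.00553), took *Irf1* to 0.22, past no threshold, and left 2 lower genes among other receptor chains and kinases; by construction it subtracts each chromosome's median. *Irf9* passed the threshold at 0.33 with upper-quartile factors and 0.28 in edgeR. edgeR also gave 4 lower other STAT and IRF factors and 1 lower antigen presentation gene. The cause was not tested. Libraries are not paired by their replicate numbers (correlation of deviations -0.0177). With the replicate number as a block the counts of called members were unchanged at 3 higher and 0 lower, other STAT and IRF factors gave 1 lower, and antiviral effectors 4 higher.

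Fits that left out 1 library assume that the lone library of a group varies like the other group. They gave 0.31 to 0.47 for *Irf1*, and -0.01 to 0.19 for *Irf3*, the sign of which turned without KO-labelled replicate 2 (-0.0114). Called members were 2 to 3 higher. Counts ran from 1 to 3 lower for other receptor chains and kinases, 1 to 2 higher and 1 to 2 lower for other STAT and IRF factors, 3 to 6 higher and 2 to 3 lower for antiviral effectors, and 0 to 2 lower for negative regulators. *Isg15* got no adjusted p in most fits, and its log2 fold change ran from -2.39 to -0.68 without single libraries.

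A test against a 2-fold change called 0 members by DESeq2. With coding length, mean TPM over the 4 libraries were 38.3 for *Ifnar1*, 3.56 for *Ifnar2*, 34.96 for *Irf1*, 29.8 for *Irf3*, 16.3 for *Irf9* and 348 for *Ifitm1*, while *Stat2*, *Isg15* and *Ifitm2* moved by less than their spread. The remaining 294 values moved less than this: tested values kept direction and side of the threshold, counts stayed within 1.5 times (called members at 2 to 4 higher), and values with no test, such as those of *Isg15* without an adjusted p, stayed in sign or within their spread.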
